A study of Mus musculus with 5 samples.

Results

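Integrins are cell surface receptors built of 1 α and 1 β subunit, and 10 of the genes that encode the subunits used by leukocytes are described here. They were the rows of the count table with the symbols *Itgal*, *Itgam*, *Itgax*, *Itgb2*, *Itga4*, *Itgb7*, *Itgb1*, *Itgav*, *Itgb5* and *Itgb3*, and all 10 were found among its 55487 genes. The RNAseq compared macrophages of 2 genotypes, with 2 libraries from *Zeb1*WT/*Apoe*KO mice and 3 from *Zeb1*∆M/*Apoe*KO mice, called *Zeb1*WT and *Zeb1*∆M libraries hereafter. Both groups were male mice that lacked *Apoe*, which makes them prone to atherosclerosis, and that ate chow for 8 weeks and a Western diet for another 10 weeks. *Zeb1*WT/*Apoe*KO mice carried *Zeb1* alleles with loxP sites and no Cre, whereas in *Zeb1*∆M/*Apoe*KO mice Cre expressed from the *Lyz2* (LysM) gene removed *Zeb1* in the myeloid lineage, of which macrophages are 1 branch. The labels describe viable CD45+ F4/80+ cells of the aorta, and the study's methods add CD11b to the sort and state that cells from 3 mice per genotype and condition were pooled. The methods speak of libraries in triplicate, while the labels list 2 libraries of *Zeb1*WT/*Apoe*KO. The study calls its replicates biologically independent, and the labels do not tie a library to particular mice, so p-values measure the spread between these libraries as deposited.

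An integrin reaches the cell surface only as an α and β pair, and the β subunit decides much of where the receptor is found. The β2 integrins LFA-1 (*Itgal* with *Itgb2*), Mac-1 (*Itgam* with *Itgb2*) and CD11c/CD18 (*Itgax* with *Itgb2*) are restricted to leukocytes and bind ICAMs, complement fragments and fibrinogen. The α4 integrins VLA-4 (*Itga4* with *Itgb1*) and α4β7 (*Itga4* with *Itgb7*) bind VCAM-1, fibronectin and MAdCAM-1, and αv pairs with the β1, β3 or β5 subunit to bind RGD sequences in vitronectin, osteopontin and other matrix proteins. In atherosclerosis, these receptors are known for the arrest of monocytes on inflamed endothelium and for the adhesion of macrophages in the plaque.

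Expected counts were deposited, which are estimated read counts per gene, and totals ranged from 20118545 to 50649912 per library. All libraries were made from amplified cDNA with a kit for very small inputs. Detection was set at more than 3 counts, and this limit covers counting error only, since PCR copies of 1 molecule are counted more than once. The libraries numbered 1 of both genotypes stood apart, with 1714 and 870 genes at 100 counts or more against 3173 to 4421 in the others. In *Zeb1*∆M replicate 1, 16423 genes exceeded 3 counts, with a median of 14 counts among them. *Zeb1* was counted in *Zeb1*∆M replicate 1 alone, with 22 counts, and the labels could not be checked with it. *Lyz2* had 161607 to 869804 counts, *Ptprc* (CD45) 475 to 44796 and *Adgre1* (F4/80) 1068 to 38190. Of other macrophage markers, *Cd68* had 0 counts in *Zeb1*WT replicate 1, 10 in *Zeb1*∆M replicate 1 and 36172 to 46735 in the rest, and *Mertk* had 0 in all but *Zeb1*∆M replicate 1, with 22.

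No integrin subunit gene was detected in all 5 libraries. *Itgal*, *Itgam*, *Itgb2* and *Itga4* exceeded 3 counts in 4 libraries, *Itgb7* and *Itgav* in 3, *Itgb1* and *Itgb5* in 2, and *Itgax* and *Itgb3* in 1. Among the 21705 genes of the table that exceeded 3 counts somewhere, 5.0% did so in 5 libraries and 7.47% in 4. The number of integrin genes detected was 3 and 5 in *Zeb1*WT replicates 1 and 2, and 6, 6 and 8 in *Zeb1*∆M replicates 1, 2 and 3. In the same order, 12.5% and 10.9% of all genes in the table were detected, and 29.6%, 9.03% and 12.3%. Detection over all genes was thus highest in *Zeb1*∆M replicate 1, and the genotypes overlapped in it. The summed counts of the integrin genes were 488 and 34286 in the *Zeb1*WT libraries and 4420, 35966 and 151579 in the *Zeb1*∆M libraries. These sums made up 0.00243% and 0.0991% of all counts in the former and 0.0181%, 0.101% and 0.299% in the latter. The 2 genotypes overlapped in this share, and both low values belonged to the libraries numbered 1.

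**Figure D1:**
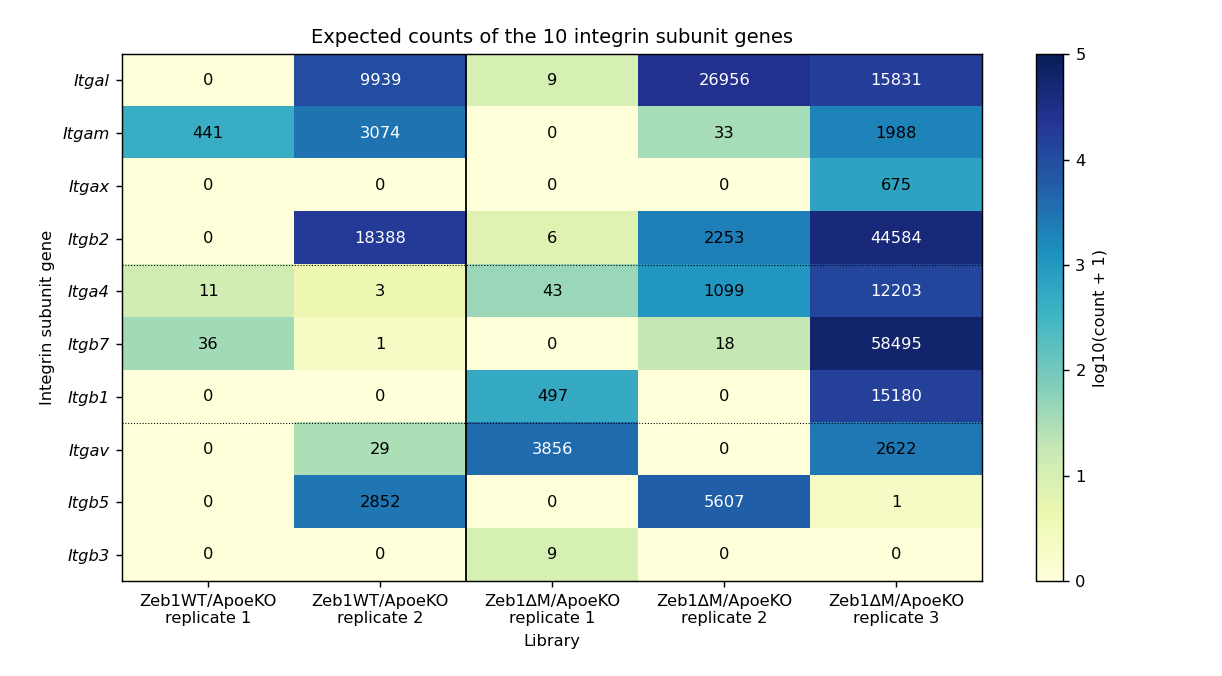
Expected counts of the 10 integrin subunit genes (rows) in the 5 libraries (columns), with colour giving log10(count + 1) and the count written in each cell. The vertical line separates the genotypes, and dotted lines separate β2 integrin genes, *Itga4* with its β partners, and *Itgav* with other β partners. Every gene has a library with 3 counts or fewer.

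Among the β2 integrin genes, *Itgal* encodes αL, the α subunit of LFA-1. The gene (ENSMUSG00000030830.18) lies on the plus strand of chromosome 7 of GRCm38, from 127296260 to 127335138. *Itgal* had 0 and 9939 counts in *Zeb1*WT replicates 1 and 2, and 9, 26956 and 15831 counts in *Zeb1*∆M replicates 1, 2 and 3. Both replicate 1 libraries were low, the other 3 were high, and the genotypes overlapped. In CPM, counts relative to the library total after TMM scaling, *Itgal* was 144 ± 204 (SD, n = 2) in *Zeb1*WT and 315 ± 315 (SD, n = 3) in *Zeb1*∆M libraries. The log2 fold change, *Zeb1*∆M over *Zeb1*WT, was 1.13 (standard error 3.98, unadjusted p = 0.777 and adjusted p = 1, quasi-likelihood test of edgeR, Benjamini-Hochberg adjustment over 7905 genes). The adjusted p was 1 for all 8 integrin genes tested (same test). Without *Zeb1*WT replicate 2 the log2 fold change was 16.43, since the remaining control library had 0 counts, and it was 0.24 without *Zeb1*WT replicate 1 and 0.23 without *Zeb1*∆M replicate 2.

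*Itgb2* (ENSMUSG00000000290.13, chromosome 10, 77530252 to 77565708, plus strand) encodes the β2 subunit, CD18, that LFA-1, Mac-1 and CD11c/CD18 share. Its counts were 0 and 18388 in *Zeb1*WT replicates 1 and 2, and 6, 2253 and 44584 in *Zeb1*∆M replicates 1, 2 and 3. As for *Itgal*, the replicate 1 libraries had next to none of it, and *Zeb1*WT replicate 2 lay between *Zeb1*∆M replicates 2 and 3. *Itgb2* reached 267 ± 377 CPM (SD, n = 2) in *Zeb1*WT and 314 ± 498 CPM (SD, n = 3) in *Zeb1*∆M libraries. The log2 fold change was 0.23 (standard error 3.71, unadjusted p = 0.950), and it turned to −3.33 without *Zeb1*∆M replicate 3, to −0.64 without *Zeb1*WT replicate 1 and to 16.43 without *Zeb1*WT replicate 2. A difference in *Itgb2* was therefore not detectable against this spread.

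*Itgam* (ENSMUSG00000030786.18, chromosome 7, 128062640 to 128118491, plus strand) encodes αM, or CD11b, the protein named in the sort. Its counts were 441 and 3074 in *Zeb1*WT replicates 1 and 2, and 0, 33 and 1988 in *Zeb1*∆M replicates 1, 2 and 3. *Zeb1*∆M replicates 1 and 2 lay below both *Zeb1*WT libraries, and *Zeb1*∆M replicate 3 lay between them. The mean was 52.6 ± 51.8 CPM (SD, n = 2) in *Zeb1*WT and 13.4 ± 22.6 CPM (SD, n = 3) in *Zeb1*∆M libraries, with a log2 fold change of −1.97 (standard error 4.79, unadjusted p = 0.681). It was −5.53 with upper-quartile scaling, under which the genotypes did not overlap, −7.06 without *Zeb1*∆M replicate 3, −2.60 without *Zeb1*WT replicate 1 and −0.21 without *Zeb1*WT replicate 2. Since CD11b was used to choose the cells, a value of *Itgam* is not a free readout of them. The mRNA was counted 0 times in *Zeb1*∆M replicate 1 and 33 times in replicate 2 from cells sorted, per the methods, for the protein. *Itgam* shares 3450 exonic bases on the same strand with *Gm49368*, which had 1 count in *Zeb1*∆M replicate 3 and 0 in the other libraries, so the division of reads between them is uncertain.

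*Itgax* (ENSMUSG00000030789.9, chromosome 7, 128129547 to 128150657, plus strand) starts 11055 bases after the end of *Itgam* and encodes αX, or CD11c, known from dendritic cells and lipid-laden macrophages. It had 675 counts in *Zeb1*∆M replicate 3 and 0 in the other 4 libraries. It did not pass edgeR's filter on low counts. Against the limit of 3 counts per *Zeb1*WT library, its *Zeb1*∆M mean was at least 45.8-fold higher, and this rests on *Zeb1*∆M replicate 3, without which *Itgax* was at 0 throughout. The same library had 21805 counts of *Cd209a*, while the other dendritic cell markers *Flt3*, *Zbtb46*, *Xcr1* and *Clec9a* were at 0 there. The part of dendritic cells in the *Itgax* counts was not tested.

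Of the α4 integrin genes, *Itga4* (ENSMUSG00000027009.18, chromosome 2, 79255426 to 79333123, plus strand) encodes the α subunit of VLA-4 and α4β7. It had 11 and 3 counts in *Zeb1*WT replicates 1 and 2, and 43, 1099 and 12203 counts in *Zeb1*∆M replicates 1, 2 and 3. Each *Zeb1*∆M library was above both *Zeb1*WT libraries, and *Itga4* was the only 1 of the 10 genes whose CPM did not overlap between the genotypes. Of all 7905 genes tested, 11.2% did not overlap in either direction and 6.68% were higher in all *Zeb1*∆M libraries, so 1 gene of 10 is near this background. The mean level was 0.243 ± 0.220 CPM (SD, n = 2) in *Zeb1*WT and 90.7 ± 132 CPM (SD, n = 3) in *Zeb1*∆M libraries. The log2 fold change was 8.53 (standard error 7.37, unadjusted p = 0.247), and it was 3.16 with upper-quartile scaling, 5.90 without *Zeb1*∆M replicate 3 and 10.09 without *Zeb1*WT replicate 1. A two-sided exact permutation test of mean log2 CPM gave p = 0.2, where 2 libraries against 3 allow no p below 0.1. The genotypes did not overlap under any of the 4 scalings, while the 3 *Zeb1*∆M libraries differed among themselves from 3.55 to 243 CPM. The 43 counts in *Zeb1*∆M replicate 1 compare with a median of 14 counts among the genes above 3 counts in that library. *Itga4* shares 1124 exonic bases with *Cerkl* on the opposite strand, which had 3755 counts in *Zeb1*∆M replicate 3 and 13 or fewer in the others. The kit does not mark strand, so reads of the 2 genes cannot be told apart in the shared bases.

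*Itgb7* (ENSMUSG00000001281.10, chromosome 15, 102215995 to 102231944, minus strand) encodes β7, the partner of α4 in a receptor known for homing of lymphocytes to the gut. Its counts were 36 and 1 in *Zeb1*WT replicates 1 and 2, and 0, 18 and 58495 in *Zeb1*∆M replicates 1, 2 and 3, the highest value of the 10 genes. *Zeb1*∆M replicate 3 stood alone, and *Zeb1*∆M replicates 1 and 2 were below *Zeb1*WT replicate 1. It averaged 0.666 ± 0.901 CPM (SD, n = 2) in *Zeb1*WT against 388 ± 672 CPM (SD, n = 3) in *Zeb1*∆M libraries, and the log2 fold change was 9.18 (standard error 6.0, unadjusted p = 0.126). Without *Zeb1*∆M replicate 3 it was −1.63, with the replicate number as a block −1.18, with upper-quartile scaling 2.99 and without *Zeb1*WT replicate 1 13.67. *Zeb1*∆M replicate 3 also held the only counts of *Nkg7* (27226) and 26062 counts of *Gzma*, genes of NK cells and cytotoxic T cells. The NK cell markers *Ncr1*, *Klrb1c* and *Eomes* were at 0 in it. *Gzma* had 22954 counts in *Zeb1*WT replicate 1 as well, where *Itgb7* had 36.

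*Itgb1* (ENSMUSG00000025809.15, chromosome 8, 128685654 to 128733200, plus strand) encodes β1, the most widely used integrin β subunit and the partner of both α4 and αv. It had 0 counts in both *Zeb1*WT libraries and 497, 0 and 15180 counts in *Zeb1*∆M replicates 1, 2 and 3. Since *Zeb1*∆M replicate 2 was also at 0, the genotypes overlapped. The *Zeb1*∆M mean was 114 ± 164 CPM (SD, n = 3), at least 1169-fold above the mean limit of 3 counts in the *Zeb1*WT libraries, and without *Zeb1*∆M replicate 3 the bound was 209.6-fold. edgeR gave an unadjusted p of 0.0871 and an adjusted p of 1. DESeq2 with default options, the tool named in the study's methods, gave *Itgb1* an adjusted p of 5.3e-08, the only call among the 10 genes by any of the 3 tools run. Of the 10 genes, 5 had an adjusted p in DESeq2, and 12.1% of all 6519 genes with an adjusted p were called by it, 6.87% as higher in *Zeb1*∆M libraries. limma-voom gave *Itgb1* an adjusted p of 0.471.

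*Itgav* (ENSMUSG00000027087.11, chromosome 2, 83724397 to 83806916, plus strand) encodes αv, the common α subunit of the receptors for RGD sequences. Its counts were 0 and 29 in *Zeb1*WT replicates 1 and 2, and 3856, 0 and 2622 in *Zeb1*∆M replicates 1, 2 and 3. *Zeb1*∆M replicates 1 and 3 were above both *Zeb1*WT libraries, and *Zeb1*∆M replicate 2 was at 0. In CPM the means were 0.421 ± 0.595 (SD, n = 2) and 123 ± 171 (SD, n = 3), and the log2 fold change was 8.18 (standard error 7.11, unadjusted p = 0.250). It was 12.69 with upper-quartile scaling, 14.54 without *Zeb1*WT replicate 2, 6.95 without *Zeb1*WT replicate 1 and 5.87 without *Zeb1*∆M replicate 1. *Itgav* had the largest CPM of the 10 genes in *Zeb1*∆M replicate 1, where *Itgal*, *Itgb2* and *Itgb3* had 9 counts or fewer. It shares 634 exonic bases with *Gm13684* on the opposite strand, which had 7 counts in that library and 0 in the others.

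*Itgb5* (ENSMUSG00000022817.15, chromosome 16, 33829665 to 33949338, plus strand) encodes β5, which pairs with αv in a receptor known for the uptake of apoptotic cells. Its counts were 0 and 2852 in *Zeb1*WT replicates 1 and 2, and 0, 5607 and 1 in *Zeb1*∆M replicates 1, 2 and 3. Replicate 2 of each genotype was high and the other 3 libraries had at most 1 count. It averaged 41.4 ± 58.5 CPM (SD, n = 2) in *Zeb1*WT against 43.7 ± 75.7 CPM (SD, n = 3) in *Zeb1*∆M libraries, with a log2 fold change of 0.08 (standard error 4.93, unadjusted p = 0.987). It was −0.82 without *Zeb1*WT replicate 1 and 13.57 without *Zeb1*WT replicate 2. *Itgb3* (ENSMUSG00000020689.4, chromosome 11, 104608000 to 104670476, plus strand), which encodes β3, the subunit of the vitronectin receptor and of the fibrinogen receptor of platelets, had 9 counts in *Zeb1*∆M replicate 1 and 0 in the other 4 libraries. It did not pass the filter, and no fold is given for it.

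**Figure D2:**
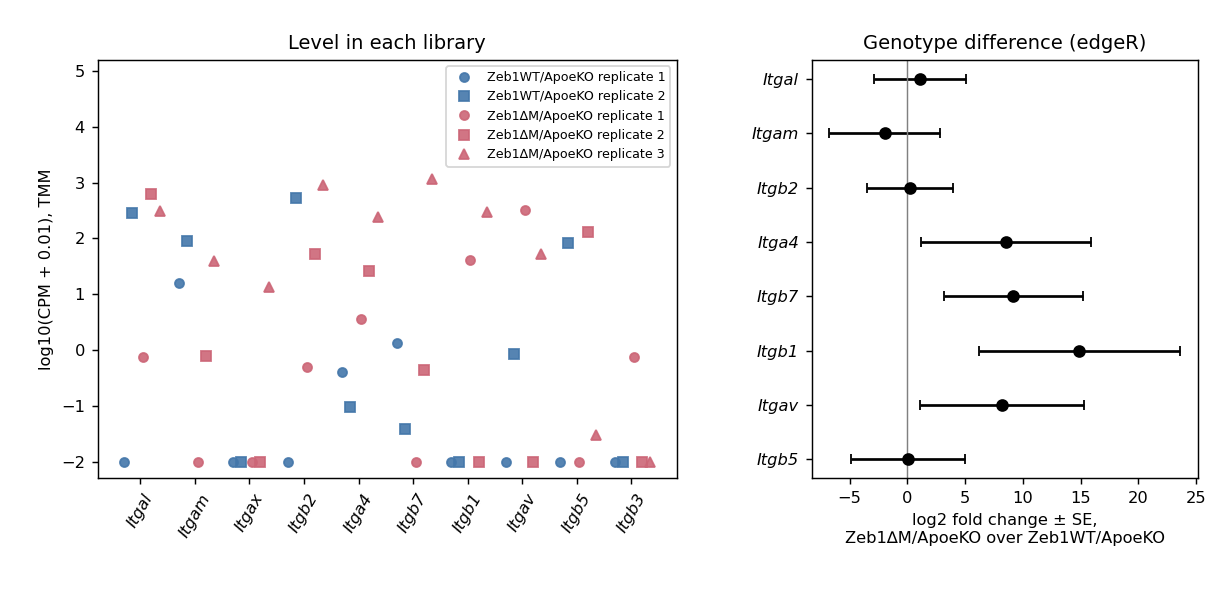
Left, level of each integrin subunit gene in each library as log10(CPM + 0.01), where points at −2 are libraries with 0 counts, blue marks *Zeb1*WT and red marks *Zeb1*∆M. Right, log2 fold change with its standard error from edgeR for the 8 genes tested, where the value of *Itgb1* is a fitted one against 0 counts. Only for *Itga4* are the red points all above the blue ones.

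ZEB1 is a transcription factor that binds E-boxes with the letters CACCTG, or CAGGTG when read on the other strand. In the RefSeq windows that run from 250 bases before to 50 after a gene's start site (GRCm38.p6), 20.2% of 32851 windows held these letters on either strand. Windows were at hand for 7 of the 10 genes, *Itgam*, *Itgax*, *Itga4*, *Itgb7*, *Itgb1*, *Itgav* and *Itgb5*. The letters were found in the window of *Itgb5* alone, 109 bases before its start site on chromosome 16, from 33829556 to 33829561. The stretch around it is shown because *Zeb1* is the gene deleted in the comparison, with the E-box in capitals, 5′ to 3′ on the plus strand, at chr16:33829496-33829621.
*Itgb5* promoter: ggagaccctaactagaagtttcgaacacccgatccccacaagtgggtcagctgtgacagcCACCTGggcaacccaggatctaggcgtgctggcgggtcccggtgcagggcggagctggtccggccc
The match is a description of letters and not a measured binding site. No match in the other 6 windows says only that these letters are not in them.

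Of the 8 genes that passed the filter, edgeR called 0, as it did among all genes tested (0 of 7905, with 86 at an unadjusted p under 0.05), which is 0.0% of them. None of the 8 had an unadjusted p under 0.05 in edgeR with all libraries and TMM scaling, DESeq2 called 1 (*Itgb1*) and limma-voom 0. DESeq2 gave unadjusted p-values under 0.05 for *Itgb1* (1.19e-09), *Itga4* (0.00980) and *Itgav* (0.0204). limma-voom did so for *Itga4* (0.0224) and *Itgb1* (0.0270). edgeR gave *Itgb1* 0.0432 with upper-quartile scaling and *Itgb7* 0.0496 without *Zeb1*∆M replicate 1. After adjustment only *Itgb1* in DESeq2 was under 0.05. By sign alone, 7 of the 8 log2 fold changes were above 0, with a median of 4.66, beside 4811 of 7905 genes and a median of 0.78 over all genes tested. With the 1 gene at the limit in *Zeb1*WT, *Itgb1*, set to its bound, the median of the 8 remained 4.66. The median over all genes moved between 0.13 and 1.24 with the scaling, and that of the 8 genes between 2.51 and 4.66, with 7 of 8 above 0 under each scaling. These counts and medians describe the 8 genes and support nothing further, since the filter on low counts chose them.

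Within each library, levels can be compared between genes per kilobase of exon. Averaged over the 5 libraries, *Itgb2* (96.6 ± 131 CPM per kb, SD, n = 5) and *Itgb7* (84.2 ± 188) came first, before *Itgal* (37.6 ± 39.9), *Itgb1* (16.8 ± 32.3) and *Itgb5* (12.0 ± 17.2). *Itgav* (6.91 ± 12.9), *Itgam* (5.79 ± 7.41) and *Itga4* (3.90 ± 7.57) followed, and *Itgax* (0.559 ± 1.25) and *Itgb3* (0.0252 ± 0.0563) came last. The SD of every gene exceeded its mean, and no 2 neighbours in this order differed beyond their spread. For each of the 10 genes, 1 library held most of the sum over the libraries, from 51.1% for *Itgal*, 60.2% for *Itgb2* and 61.3% for both *Itgam* and *Itgb5* to 85.7% for *Itgav*, 88.0% for *Itgb1*, 89.1% for *Itga4*, 99.8% for *Itgb7* and 100% for *Itgax* and *Itgb3*. By the median of the 5 libraries, which pools both genotypes as the mean does, *Itgal* (43.9 CPM per kb) came first, before *Itgb2* (17.3) and *Itgam* (3.18), and *Itgb7* was at 0.152.

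Each library was led by a different gene. *Itgam* made up 86.4% of the summed CPM per kb of the 10 genes in *Zeb1*WT replicate 1, and *Itgb2* made up 67.3% in *Zeb1*WT replicate 2. *Itgav* made up 73.5% in *Zeb1*∆M replicate 1, *Itgal* 63.0% in replicate 2 and *Itgb7* 48.5% in replicate 3. The leading gene thus differed among libraries of the same genotype as well as between genotypes.

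**Figure D3:**
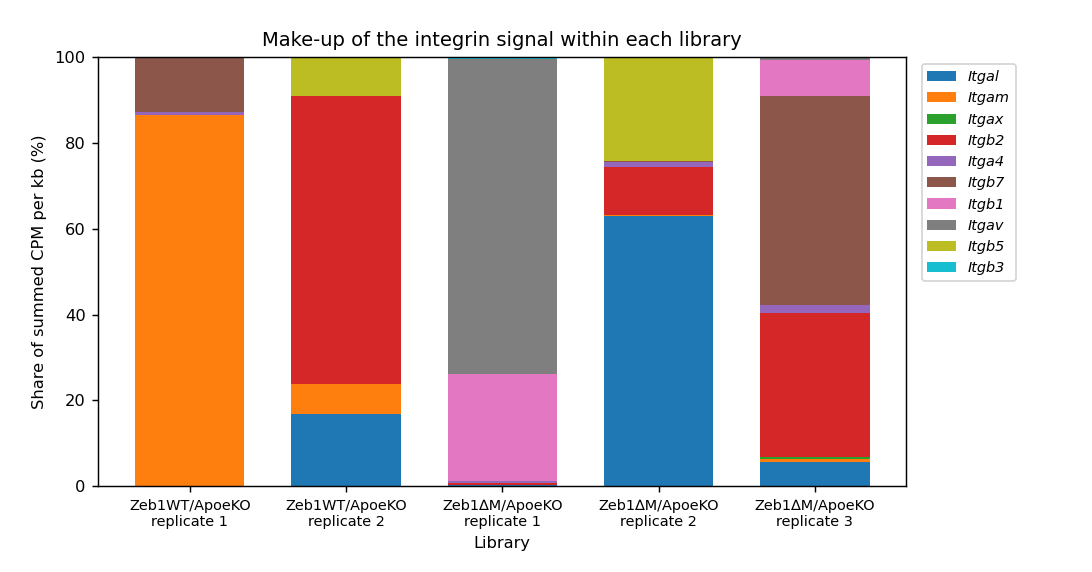
Share of each gene in the summed CPM per kb of the 10 integrin subunit genes (%, vertical axis) in each library. The leading gene is *Itgam* (86.4%), *Itgb2* (67.3%), *Itgav* (73.5%), *Itgal* (63.0%) and *Itgb7* (48.5%) from left to right.

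Because an integrin needs both chains, the partners were read together in 8 known pairs. *Itgal* with *Itgb2* was the pair found most often, with both genes above 3 counts in 4 libraries, though at 9 and 6 counts in *Zeb1*∆M replicate 1, and neither in *Zeb1*WT replicate 1. *Itgam* with *Itgb2* and *Itga4* with *Itgb7* were found in 3 libraries, *Itga4* with *Itgb1* and *Itgav* with *Itgb1* in 2. *Itgax* with *Itgb2*, *Itgav* with *Itgb3* and *Itgav* with *Itgb5* were each found in 1. By library, both genes were present for 1 and 3 pairs in *Zeb1*WT replicates 1 and 2, and for 4, 3 and 6 pairs in *Zeb1*∆M replicates 1, 2 and 3. With both genes at 100 counts or more, *Itgal* with *Itgb2* was found in 3 libraries, *Itgam* with *Itgb2* and *Itgav* with *Itgb1* in 2, and *Itgav* with *Itgb5* in 0.

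Partners were often detected without each other. In *Zeb1*WT replicate 1, *Itgam* had 441 counts and its only β partner *Itgb2* had 0. *Itgb5* had 5607 counts in *Zeb1*∆M replicate 2, where its α partner *Itgav* had 0, and *Itgav* had 3856 counts in *Zeb1*∆M replicate 1, where *Itgb5* had 0. The level of *Itgb2* per kb over the sum of its 3 α partners was 2.84 in *Zeb1*WT replicate 2, and 1.43, 0.180 and 4.96 in *Zeb1*∆M replicates 1, 2 and 3, where that of replicate 1 rests on 6 and 9 counts. This ratio was below 1 in *Zeb1*∆M replicate 2 and also in *Zeb1*WT replicate 1, where *Itgb2* was at 0 and its α partners summed to 3.18 CPM per kb. For *Itgb1* and *Itgb7* summed over *Itga4* the ratio was 16.5 and 1.68 in *Zeb1*WT replicates 1 and 2, which rest on 36 counts or fewer per gene, and 39.6, 0.0826 and 28.4 in *Zeb1*∆M replicates 1, 2 and 3.

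**Figure D4:**
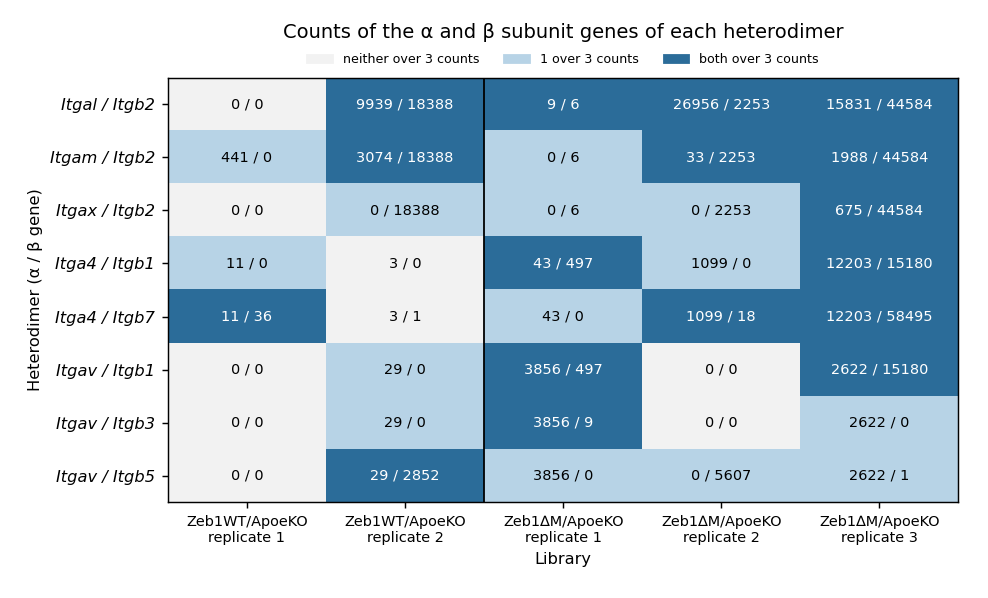
Counts of the α and the β subunit gene (written α / β) of 8 integrin pairs (rows) in the 5 libraries (columns). Dark cells have both genes above 3 counts, light blue cells 1 and grey cells neither. *Itgal* with *Itgb2* is dark in 4 libraries, and *Zeb1*WT replicate 1 has 1 dark cell.

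The 3 genes whose profile over the 5 libraries was nearest to that of *Itgb2* were *Arl6ip1*, *Vps4b* and *Ldha*, with a root mean square difference in centred log2 CPM of 0.51, 0.59 and 0.70. *Ldha*, the A subunit of lactate dehydrogenase, had 0 and 9725 counts in the *Zeb1*WT and 11, 4787 and 58845 counts in the *Zeb1*∆M libraries. Among the integrin genes, *Itgal* was the nearest to *Itgb2* (1.76, place 203 of 7904 genes), and *Itgam* was at 4.99 (place 2080). Many genes thus followed the split of *Itgb2* between low and high libraries more closely than its α partners did.

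A sort for CD11b and F4/80 would remove T cells and NK cells. Markers of T cells, in which LFA-1 and α4 integrins are also abundant, still moved with the same libraries as *Itgal* and *Itgb2*. Their 8 markers summed to 8.15 and 6499.6 CPM in *Zeb1*WT replicates 1 and 2, and to 2.31, 495 and 1699 CPM in *Zeb1*∆M replicates 1, 2 and 3, with 4, 8, 3, 4 and 6 markers above 3 counts. In *Zeb1*∆M replicate 2, *Cd3g* (13275 counts), *Trbc2* (5726), *Cd3e* (1207) and *Lck* (964) were counted, *Cd3d*, *Cd4* and *Trac* were at 0, and *Cd8a* had 3 counts. *Cd8a* had 35711 counts in *Zeb1*WT replicate 2 and 23449 in *Zeb1*∆M replicate 3, while *Cd4* was at 0 in all libraries but *Zeb1*WT replicate 2. Of the α4 integrin genes, *Itga4* and *Itgb7* had 3 and 1 counts in *Zeb1*WT replicate 2, where the T cell marker sum was highest. Both peaked in *Zeb1*∆M replicate 3, at 12203 and 58495 counts. *Itgal* and *Itgb2* were high in the 3 libraries with high T cell marker sums and at 9 counts or fewer in the other 2. Among the 8 macrophage markers, *Cd68* and *Csf1r* split the same way, as *Cd68* had 0 and 1296 CPM in *Zeb1*WT and 0.825, 846 and 930.2 CPM in *Zeb1*∆M libraries, and *Csf1r* had 18.2 and 267 against 2.06, 618 and 947 CPM. Others did not, as *Cd14* had 2148 and 2941 CPM in *Zeb1*WT and 2.72, 3665 and 2109.6 CPM in *Zeb1*∆M libraries, and *Adgre1* and *Ptprc* were at least about as high in *Zeb1*WT replicate 1 (339 and 485 CPM) as in replicate 2 (339 and 405 CPM). *Lck*, a kinase of T cells, had 90049 counts in *Zeb1*WT replicate 2 and 31024 in *Zeb1*∆M replicate 3. The 5 NK cell markers summed to 831 and 0 CPM in *Zeb1*WT and to 1.82, 0.117 and 1061 CPM in *Zeb1*∆M libraries, led by *Gzma* in *Zeb1*WT replicate 1 and by *Nkg7* and *Gzma* in *Zeb1*∆M replicate 3. The part of lymphocytes in the integrin counts was not tested, and in bulk RNA fewer cells of a type and less RNA per cell cannot be told apart.

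Macrophage markers, 8 genes led by *Lyz2*, summed to 24572 and 27893 CPM in the *Zeb1*WT and to 13470 to 26319 CPM in the *Zeb1*∆M libraries. *Lyz2*, from which Cre was expressed in *Zeb1*∆M mice alone, was lower in each *Zeb1*∆M library than in both *Zeb1*WT libraries. Its means were 16895 and 22068 CPM (unadjusted p = 0.770, edgeR), and a part of the Cre allele in this was not tested. The 6 markers of neutrophils, cells that also use β2 integrins, summed to 883 to 2617 CPM in *Zeb1*WT and 139 to 2735 CPM in *Zeb1*∆M libraries. *S100a8* was the highest of them in 4 libraries and *Csf3r* in *Zeb1*∆M replicate 3, while *Ly6g* had at most 1 count. The sum of 2735 CPM, in *Zeb1*∆M replicate 1, was almost all *S100a8* (2734 CPM). There *Csf3r* had 15 counts, and *S100a9*, *Retnlg*, *Mmp9* and *Ly6g* were at 0. Markers of platelets (5 genes), in which *Itgb3* is abundant, summed to 0.253 to 81.7 CPM in *Zeb1*WT and 0 to 46.3 CPM in *Zeb1*∆M libraries. *Ppbp* made up nearly all of the sum in *Zeb1*WT replicate 2 and *Zeb1*∆M replicate 3, where *Itgb3* was at 0. In *Zeb1*∆M replicate 1, the only library with *Itgb3* (9 counts), *Itga2b* (12 counts), *Gp1bb* (9) and *Gp1ba* (9) exceeded 3 counts, and *Ppbp* had 2. B cell and mast cell markers (5 genes each) stayed at 7.43 CPM or less in sum, and smooth muscle markers (4 genes) at 0.908 CPM or less. The 5 dendritic cell markers reached 2.57 CPM in *Zeb1*WT and 434 CPM in *Zeb1*∆M libraries, the 4 fibroblast markers 0.109 and 444 CPM (*Dcn* in *Zeb1*∆M replicate 2), and the 4 endothelial markers 72.3 and 52.3 CPM, with *Cdh5* at 0 throughout.

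**Figure D5:**
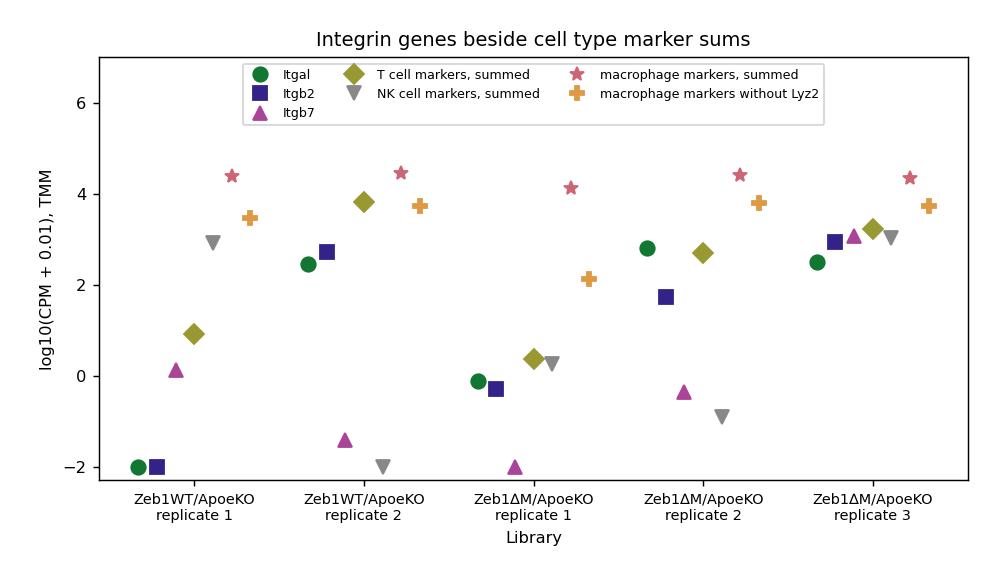
Levels of *Itgal*, *Itgb2* and *Itgb7* and the summed levels of T cell, NK cell and macrophage markers, the last with and without *Lyz2*, in each library, as log10(CPM + 0.01) after TMM scaling, where −2 stands for 0 counts. *Itgal* and *Itgb2* are high in the 3 libraries with T cell marker sums of 495 CPM or more, where the macrophage markers without *Lyz2* sum to 5338 to 6283 CPM, against 2991 and 135 CPM in the replicate 1 libraries.

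The other integrin subunits, 16 genes, were hardly counted. *Itga5*, the α subunit of the fibronectin receptor, had 9 and 5503 counts in the *Zeb1*WT and 0, 1138 and 0 counts in the *Zeb1*∆M libraries and was the only 1 of them above 100 counts. Of these genes 11 exceeded 3 counts in any library, 3 passed the filter and edgeR called 0 (0 at an unadjusted p under 0.05, 0 by DESeq2 and by limma-voom). In *Zeb1*∆M replicate 1, 10 of them exceeded 3 counts, at 59 counts or fewer. *Itgad* and *Itgb6* had 0 counts throughout.

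Of 34 genes that switch integrins on or join them to the cytoskeleton, 33 exceeded 3 counts in any library and 5 in all 5 libraries. The filter left 29, of which edgeR called 0 (0 at an unadjusted p under 0.05), with 18 log2 fold changes above 0, 11 below and a median of 0.05. *Rap1b*, a small GTPase that activates integrins through talin, had 11369 and 4525 counts in *Zeb1*WT and 1400, 5766 and 17291 counts in *Zeb1*∆M libraries. With *Skap2* (21 to 25522 counts), *Fyb* (64 to 14134), both adaptors, and the kinase *Lyn* (8 to 18859), it was present in every library, unlike any integrin gene, and the fifth was the talin *Tln2* (5 to 480 counts). The log2 fold changes of *Rap1b*, *Skap2*, *Fyb* and *Lyn* lay between −0.45 and 0.81, with unadjusted p-values from 0.850 to 0.991.

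In the same list, 4 genes did not overlap between the genotypes, 3 higher and 1 lower in *Zeb1*∆M libraries, beside 11.2% of all genes tested. *Actn4*, an α-actinin, had 0 counts in both *Zeb1*WT libraries and 17, 16493 and 10384 counts in *Zeb1*∆M replicates 1, 2 and 3. *Lims1* (PINCH1) had 2 and 2 counts against 12, 7438 and 10131 counts. *Itgb1bp1*, which binds the β1 tail, had 0 and 0 counts against 2, 26259 and 413 counts. Its 2 counts in *Zeb1*∆M replicate 1 do not exceed the detection limit, so its lack of overlap rests on a count below detection. *Pxn*, the focal adhesion protein paxillin, had 6680 and 3266 counts against 119, 0 and 1184 counts. None of the 4 was called by edgeR (unadjusted p from 0.0554 to 0.436). Over all genes, DESeq2 called 12.1% of those with an adjusted p and limma-voom 2.96% of those tested, and of this list they called 3 of 21 and 3 of 29. *Actn4* and *Lims1* were called by both DESeq2 (adjusted p = 0.00119 and 0.00768) and limma-voom (3.02e-05 and 0.0115), *Apbb1ip*, which joins Rap1 to talin, by DESeq2 (0.00736) and *Itgb1bp1* by limma-voom (0.0126). *Apbb1ip* was chosen after its values were seen, 4 and 1 counts in *Zeb1*WT and 14073, 0 and 6610 in *Zeb1*∆M libraries.

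Of 20 genes for integrin ligands, 14 exceeded 3 counts in any library, 0 did so in all 5, and 6 passed the filter. edgeR called 0 of the 6 (0 at an unadjusted p under 0.05, 0 by limma-voom), with 2 log2 fold changes above 0 and 4 below. No ligand gene met the rule for naming, which counts calls by edgeR, and the following were chosen after their values were seen. *Spp1* (osteopontin, bound by αv and α4 integrins) had 1410 and 0 counts in *Zeb1*WT and 0, 0 and 13028 counts in *Zeb1*∆M libraries, and *Icam1*, the ligand of LFA-1 and Mac-1, had 18 and 11362 against 24, 0 and 0 counts. *F11r* (JAM-A, bound by LFA-1) had 18047 counts in *Zeb1*WT replicate 1 and 0 in the other 4 libraries, and DESeq2, which tested it outside edgeR's filter, called it (adjusted p = 3.75e-09). *Fn1* (fibronectin) had 0 and 8134 counts against 4, 11934 and 1404 counts.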

How the data were processed

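Macrophages sorted from aortas gave 5 libraries, grouped by the genotype in their labels. Per the study's methods the authors mapped paired-end reads of 75 bases to GRCm38 with STAR (2.5.3a) and quantified them per gene with RSEM (1.3.0) and GENCODE annotation, and deposited these expected counts as integers, not normalized.

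The counts were tested in R 4.3.3 with edgeR 4.0.16 (filterByExpr with a minimum count of 10, TMM, the quasi-likelihood test without covariates, Benjamini-Hochberg adjustment over 7905 genes, threshold 0.05). Log2 CPM for the exact permutation test and for profiles used a prior count of 2. Alternatives were DESeq2 1.42.0, limma-voom (limma 3.58.1), other scalings and filters, a replicate block, a threshold of 0.1, and each library left out. Data were simulated with the same dispersion for every gene (6.44, the common value here). In 200 of 7905 genes the log2 change was 3, up or down. edgeR made no calls at all, and calls by DESeq2 and limma-voom were mostly false. In that setting, neither the absence of a call nor a call by the latter tools settles a difference. Larger changes and dispersions that differ between genes were not simulated. Positions and exon lengths are from GENCODE M21 (GRCm38), which is not the GENCODE version named in the study's methods.

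The members and lists were chosen with earlier results of these data known. All 10 members are named. Genes of the 3 other integrin lists are named if above 3 counts in all 5 libraries, without overlap between genotypes or called by edgeR, at most 8 per list, as are the 3 genes nearest to *Itgb2*. Others were chosen after their values were seen. Marker genes were taken from fixed lists. The study's reads were not analysed here.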

Additional observations from a re-analysis of the deposited data

How the results depend on the processing

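The 8 fitted integrin genes stayed uncalled by edgeR under RLE, upper-quartile and total-count scaling, with at least 1 count in total and with a threshold of 0.1. Without each library in turn 0 were called among those that passed the filter, which dropped *Itgb1* without *Zeb1*∆M/*Apoe*KO replicate 1 or 3 and *Itgb5* without replicate 2. The filter of at least 10 counts in every library left none of the 10 genes and no ligand or other subunit gene. DESeq2 called 790 genes in all, 1 integrin gene, 3 adaptor genes and 1 ligand gene, and limma-voom called 234 genes in all and 3 adaptor genes. The cause of these differences was not tested. Leaving out libraries gave 0 to 2 calls over all genes, where the 2 came from leaving out both replicate 1 libraries, an alternative chosen after seeing the data that leaves 1 *Zeb1*WT/*Apoe*KO library, assumed to vary like the others. The number of the 10 genes without overlap, 1 with all libraries, was 2 with upper-quartile scaling and 2 to 4 with fewer libraries, which leave fewer values to overlap (*Itga4* then stays among them by construction). Of 101 alternative log2 fold changes of the 8 genes, 92 kept sign and call, 8 changed sign and 1 became a call (*Itgb1* in DESeq2). Leaving out libraries gave −3.33 to 16.43 for *Itgb2*, −0.82 to 13.57 for *Itgb5* and −1.63 to 14.30 for *Itgb7*. The sign changed for *Itgb2* without *Zeb1*WT/*Apoe*KO replicate 1 (−0.64), without *Zeb1*∆M/*Apoe*KO replicate 3 (−3.33) and without both replicate 1 libraries (−0.026). It changed for *Itgb5* with limma-voom (−0.65), without *Zeb1*WT/*Apoe*KO replicate 1 (−0.82) and without both replicate 1 libraries (−0.19), and for *Itgb7* without *Zeb1*∆M/*Apoe*KO replicate 3 (−1.63).

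Replicate numbers 1 and 2 were used for both genotypes, and the differences between them had a correlation of 0.18 across genes, which are not independent. With the replicate number as a block, edgeR called 0 genes (7 at an unadjusted p under 0.05), and *Itgb7* had a log2 fold change of −1.18. A limit of more than 0 or more than 10 counts gave 31 and 25 detections of the 10 genes over the 5 libraries, against 28 of 50. Values of a few counts in *Zeb1*∆M/*Apoe*KO replicate 1 are near what this depth can show.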
